A study of Mus musculus with 24 samples.

Results

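The genes described here are the 4 adult globin genes Hba-a1, Hba-a2, Hbb-bs and Hbb-bt and the 2 erythroid genes Alas2 and Slc4a1, followed in every library of a mouse heart RNA-seq study. They were chosen by name and number 6 of the 15667 genes listed for uninjected hearts and of the 15327 listed for injected hearts. All 6 had values in all 24 libraries and passed the filter on low values.

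The 24 libraries were polyA-selected from the hearts of mice at postnatal day 7.5, with the tissue labelled as heart apex, and fall into 6 groups of 4. Xinβ (Xirp2) is an actin-binding protein of the cardiac intercalated disc. In the knockout (KO) mice a LacZ-Neo cassette replaces part of Xinβ in the germline, so every cell carries the deletion, and the line was backcrossed to C57BL6. Uninjected KO hearts were compared with uninjected wild-type (WT) hearts. The other 4 groups were pups injected subcutaneously at postnatal day 1 with AAV9, either AAV9-GFP as the control vector or AAV9-aYAP. They are KO GFP, KO aYAP, WT GFP and WT aYAP, and WT animals were littermates. The vectors carry a cardiac troponin T promoter, which is active in cardiomyocytes. aYAP is human YAP with the S127A change, an active form of the coactivator that the Hippo pathway restrains. Xirp2 was at 0 to 0.972 CPM, reads scaled to the size of the library, in the KO libraries and at 55.98 to 168.4 CPM in the WT libraries. The summed level of 8 cardiomyocyte genes, 54822 to 90688 CPM, fits the labelled tissue.

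Red cells carry oxygen on haemoglobin, a tetramer of alpha and beta globin chains that each hold a haem group. Alas2 encodes the erythroid enzyme of the first, rate-limiting step of haem synthesis, and Slc4a1 encodes band 3, the anion exchanger of the red cell membrane. Mature mouse red cells have no nucleus, but reticulocytes still hold globin mRNA, so RNA from a heart that contains blood includes these transcripts. In such bulk samples, fewer red cells and less RNA per red cell cannot be told apart.

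On GRCm38 the alpha genes Hba-a1 (ENSMUSG00000069919, chr11:32283511-32284465, plus strand) and Hba-a2 (ENSMUSG00000069917, chr11:32296489-32297298, plus strand) lie 12.0 kb apart. The beta genes Hbb-bt (ENSMUSG00000073940, chr7:103812524-103813996, minus strand) and Hbb-bs (ENSMUSG00000052305, chr7:103826534-103828096, minus strand) lie 12.5 kb apart. Slc4a1 (ENSMUSG00000006574) is at chr11:102348824-102366203 on the minus strand, and Alas2 (ENSMUSG00000025270) is at chrX:150547375-150570638 on the plus strand. All of Alas2, 23264 bp, lies inside the annotated span of Apex2 on the opposite strand.

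The promoters of the genes whose levels move together are shown because they carry the letters of the classical erythroid elements. The 250 bases before the start site come from RefSeq for GRCm38.p6, which held 5 of the 6 genes. The start sites are those of RefSeq, so a window may overlap the GENCODE span given above. Capitals mark the letters of the GATA motif GATAA, of the Krüppel-like factor motif CACCC, of the CAAT box CCAAT and of the TATA box TATAA. Both strands were searched, so the reverse complement of each is in capitals too, and adjoining marks run together.
Hba-a1, chr11:32283422-32283671, plus strand: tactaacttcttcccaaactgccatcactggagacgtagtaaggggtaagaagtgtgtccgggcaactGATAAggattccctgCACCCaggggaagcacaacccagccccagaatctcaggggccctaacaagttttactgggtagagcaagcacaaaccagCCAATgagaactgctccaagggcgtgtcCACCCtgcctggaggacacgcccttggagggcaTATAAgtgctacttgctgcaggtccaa
Hbb-bs, chr7:103827929-103828178, minus strand: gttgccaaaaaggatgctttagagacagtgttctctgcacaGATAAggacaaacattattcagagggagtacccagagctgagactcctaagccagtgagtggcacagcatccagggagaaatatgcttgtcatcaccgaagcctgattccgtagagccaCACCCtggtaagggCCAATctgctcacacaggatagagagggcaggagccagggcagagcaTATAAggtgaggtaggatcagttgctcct
Hbb-bt, chr7:103813924-103814173, minus strand: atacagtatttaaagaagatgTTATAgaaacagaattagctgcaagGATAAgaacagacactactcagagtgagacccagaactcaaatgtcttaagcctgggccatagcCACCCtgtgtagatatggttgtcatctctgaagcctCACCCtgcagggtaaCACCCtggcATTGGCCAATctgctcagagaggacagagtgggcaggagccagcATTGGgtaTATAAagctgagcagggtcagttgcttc
Alas2, chrX:150547167-150547416, plus strand: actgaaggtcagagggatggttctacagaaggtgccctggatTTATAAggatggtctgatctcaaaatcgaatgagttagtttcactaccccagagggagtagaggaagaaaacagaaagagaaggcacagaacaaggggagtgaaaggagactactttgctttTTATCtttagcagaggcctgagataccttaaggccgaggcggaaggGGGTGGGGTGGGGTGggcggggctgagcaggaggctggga
The Hba-a2 window shares nearly all of its letters in 1 run with that of Hba-a1 and holds the same set of marks. In each of the 4 globin windows a GATAA match on the strand of the gene began 182 to 209 bases before the start, and a TATAA match on that strand 27 to 30 bases before it. The Hbb-bt window also held TATAA on the other strand, 229 bases before the start. The Hbb-bt window held 3 CACCC and 3 CCAAT matches, the Hbb-bs window 1 of each. The Alas2 window held 1 GATAA match on the minus strand, beginning 86 bases before the start, and 3 adjoining CACCC matches on the minus strand, and no CCAAT. Its TATAA matches, 1 on each strand and overlapping, began 207 and 208 bases before the start. Of 32851 windows of this length, 22.6% held GATAA, 52.0% CACCC, 33.9% CCAAT and 22.8% TATAA. A match describes the letters and says nothing of binding.

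The globin genes of a pair share much of their transcripts. Of the 50-base stretches of the Hba-a2 coding transcript, 86.93% occur in Hba-a1, and 67.54% the other way. The shares were 58.26% of Hbb-bt in Hbb-bs and 57.47% the other way, and no stretch was common to an alpha and a beta gene. How the authors divided such reads was not given in the sources used here, so the split within a pair is uncertain and the summed level of the 4 globin genes is given beside it.

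The libraries held 20490875 to 31154155 reads on listed genes in uninjected hearts, sequenced as 50 bp single reads, and 15015038 to 19444404 in injected hearts, sequenced as 150 bp paired reads. The sets were compared only within themselves. Reads on a globin gene ranged from 3766 to 47088 a library, on Alas2 from 386 to 2325, and on Slc4a1 from 61 to 259, so that Slc4a1 carries the largest counting error. WT GFP replicate 4 stood apart in the globin genes and Alas2, with the highest globin level of all libraries. KO GFP replicate 2 was above the other KO GFP libraries in all 6 genes, but did not stand apart as clearly. Its gap to the next library, divided by the range of the group, stayed below Dixon's critical value for 4 values in each gene. For the comparisons of KO GFP with WT GFP and with KO aYAP and for the interaction, values are also given without these libraries.

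The 4 globin genes together made up 0.115 to 0.854% of reads. On a scale per kilobase of exon they were far above the erythroid genes in every group. In KO GFP the mean level per kilobase was 789 ± 384 CPM for Hba-a1, 756 ± 357 for Hba-a2, 636 ± 193 for Hbb-bs and 459.8 ± 194 for Hbb-bt (SD, n = 4). Alas2 stood at 11.2 ± 2.12 and Slc4a1 at 1.48 ± 1.08 CPM per kilobase there (SD, n = 4). The first 3 globin genes lay within each other's spread, and the order of globin genes, then Alas2, then Slc4a1 held in all 6 groups.

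**Figure D1:**
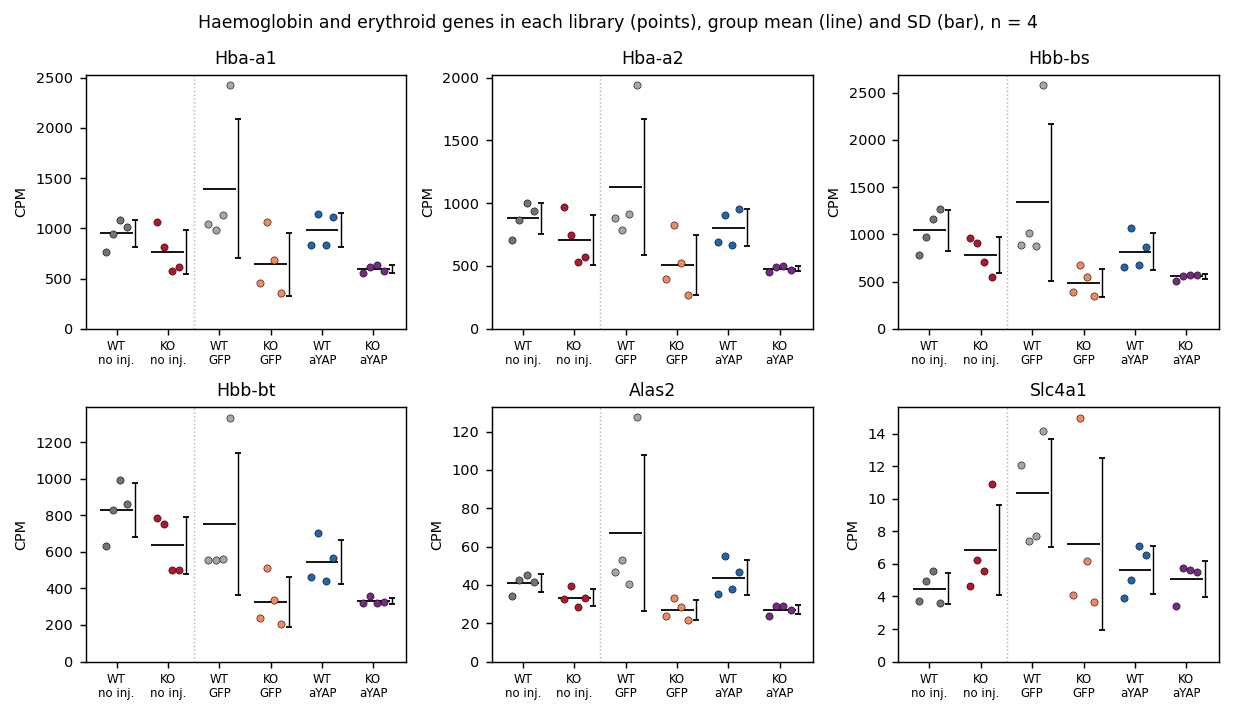
CPM (y axis, from 0) of each of the 6 genes in each library by group (x axis), with the group mean as a line and the SD as a bar (n = 4), and a dotted line between the uninjected and injected sets. WT GFP replicate 4 is the highest point of the injected set for the globin genes and Alas2, and the 4 KO aYAP libraries lie close together.

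In uninjected hearts, the question was whether loss of Xinβ alters these genes. The alpha gene Hba-a1 was at 1058, 811, 579 and 619 CPM in the 4 KO libraries and at 767, 939.7, 1079 and 1012 CPM in the 4 WT libraries. Hbb-bs, the major beta gene here, was at 964, 908, 702 and 549 CPM in KO and at 777, 966, 1164 and 1267 CPM in WT. KO replicates 1 and 2 lay among the WT values and replicates 3 and 4 below them, so the groups overlapped.

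Alas2 was at 32.5, 39.3, 28.4 and 33.1 CPM in uninjected KO and at 34.2, 42.5, 44.99 and 41.6 CPM in WT. Slc4a1 ran the other way, at 4.66, 6.26, 5.59 and 10.9 CPM in KO and 3.73, 4.96, 5.57 and 3.63 CPM in WT. None of the 6 genes was called by limma, edgeR or DESeq2 at an adjusted p under 0.05, where limma called 6.69% of the 15598 genes tested. An unadjusted limma p under 0.05 was held by 0 of the 6, and by 3517 of all genes tested. The log2 fold changes of the globin genes were -0.34 to -0.43, that of Alas2 -0.29 (95% interval -0.58 to 0.0046) and that of Slc4a1 0.48 (-0.050 to 1.01), with adjusted p-values of 0.230 to 0.367. Leaving out 1 library gave -0.22 (Hba-a1, without KO replicate 3) to -0.56 (Hbb-bs, without WT replicate 1) for the globin genes and 0.26 (without KO replicate 4) to 0.62 (without KO replicate 1) for Slc4a1, and none of the 6 was called in these fits. The median change of the 6 was -0.34, beside 0.0011 over all genes tested. The 95% intervals of the globin genes reached from -0.90 to 0.11.

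In injected hearts, globin and Alas2 transcripts were lower in KO GFP than in WT GFP. The summed globin level was 1477, 3068, 2094 and 1187 CPM in the KO GFP libraries and 3356, 3331, 3484 and 8280 CPM in the WT GFP libraries. Each KO GFP library thus lay below each WT GFP library in the sum, although replicate 2 came close.

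Hbb-bs fell from 883, 1015, 871 and 2580 CPM in WT GFP to 387, 672, 544 and 351 CPM in KO GFP. Hbb-bt, the minor beta gene here, fell from 555, 555, 562 and 1333 CPM to 239, 511, 335 and 207 CPM. The 2 groups did not overlap in either beta gene. The log2 fold change was -1.33 for Hbb-bs (SE 0.29, adjusted p = 0.0057) and -1.19 for Hbb-bt (SE 0.28, adjusted p = 0.010).

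Hba-a1 fell from 1039, 979, 1135 and 2426 CPM in WT GFP to 456, 1060, 688 and 359 CPM in KO GFP. Hba-a2 fell from 879, 783, 916 and 1941 CPM to 394, 826, 527 and 271 CPM. In both alpha genes KO GFP replicate 2 lay within the WT GFP range. The log2 fold change was -1.14 for Hba-a1 (SE 0.29, adjusted p = 0.017) and -1.18 for Hba-a2 (SE 0.29, adjusted p = 0.013).

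Alas2 fell from 46.5, 53.2, 40.4 and 127 CPM in WT GFP to 23.96, 33.3, 28.6 and 21.9 CPM in KO GFP, with no overlap. Its log2 fold change was -1.14 (SE 0.26, adjusted p = 0.0088), close to that of the globin genes. Slc4a1 was at 12.1, 7.42, 7.72 and 14.2 CPM in WT GFP and at 4.10, 14.97, 6.20 and 3.64 CPM in KO GFP. KO GFP replicate 2 held the highest Slc4a1 value of the injected set. With it the log2 fold change was -0.61 (95% interval -1.28 to 0.073, adjusted p = 0.238).

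In this comparison 5 of the 6 genes were called lower, where 7.22% of 14597 genes tested were, and 3 of 6 had groups without overlap and lower in KO, where 7.95% of all genes did. The median change of the 6 was -1.16, beside -0.0092 over all genes tested. edgeR and DESeq2 on the recovered reads called the same number, 5 of 6, where they called 6.52% and 8.3% of genes lower.

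Without WT GFP replicate 4, 4 of 6 genes were called lower, where 5.56% of all genes were. Their log2 fold changes were -0.96 for Hbb-bs (adjusted p = 0.0073), -0.88 for Hba-a2 (0.039), -0.87 for Hbb-bt (0.025) and -0.78 for Alas2 (0.0079). Hba-a1 was then at -0.83 with an adjusted p of 0.0501, and it also missed the threshold without KO GFP replicate 1 (-1.02, 0.061) or without KO GFP replicate 4 (-0.90, 0.063). Without KO GFP replicate 2, Slc4a1 was called at -0.99 (0.011). With both WT GFP replicate 4 and KO GFP replicate 2 left out, 6 of 6 genes were called lower, where 9.02% of all genes were, with log2 fold changes of -0.83 for Slc4a1 to -1.16 for Hba-a2 in limma. That fit was added after the data were seen. Leaving out the highest KO GFP library lowers these values by itself, so the count is no separate support. Alas2, Hbb-bs, Hba-a2 and Hbb-bt were called in each of the 16 fits that left out 1 library.

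With libraries scaled to their reads outside the 4 globin genes, without the deposited scaling factors, the median of all genes was -0.11. The calls were then 24.3% higher and not 47.1%. Still 5 of 6 genes were called, with log2 fold changes from -1.25 to -1.45 for the 5, well below that median.

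**Figure D2:**
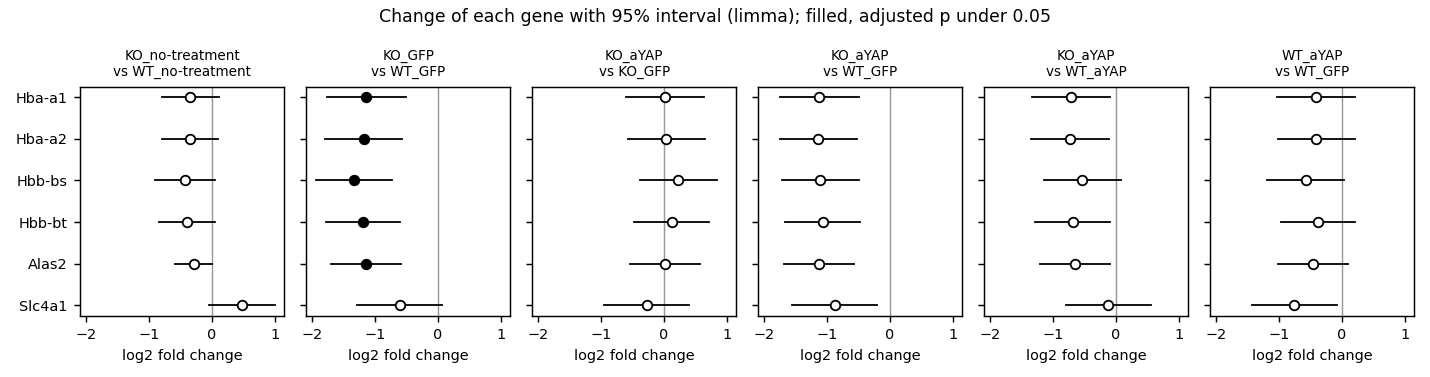
Log2 fold change (x axis) of each of the 6 genes (y axis) in the 6 comparisons of 2 groups, with 95% intervals from limma and a filled point where the adjusted p is under 0.05. Filled points stand only in KO GFP against WT GFP, for 5 genes, while the 6 intervals in KO aYAP against KO GFP all cover 0.

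The rescue comparison, KO aYAP against KO GFP, asked whether active YAP alters the transcripts in knockout hearts. In KO aYAP the summed globin level was 1839, 2023, 2026 and 1944 CPM. Its mean of 1958 ± 88.3 CPM stood beside 1957 ± 832 CPM in KO GFP (SD, n = 4 each), so that the means were close while KO GFP was far more spread. Without KO GFP replicate 2 its mean was 1586 ± 463 CPM (SD, n = 3). None of the 6 genes was called by limma, edgeR or DESeq2, where limma called 14.8% of all genes tested. An unadjusted limma p under 0.05 was held by 0 of the 6, and by 4316 of all 14597 genes tested.

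Hbb-bs was at 511, 559, 573 and 572 CPM in KO aYAP, within the KO GFP range, with a log2 fold change of 0.23 (95% interval -0.38 to 0.84). Alas2 was at 23.8, 28.8, 28.8 and 26.9 CPM, also within that range, with a log2 fold change of 0.021 (-0.53 to 0.58). The log2 fold change of Hba-a1 was 0.016 (-0.61 to 0.64) and that of Slc4a1 -0.27 (-0.95 to 0.41), and the adjusted p-values of the 6 were 0.613 to 0.980. edgeR and DESeq2 gave both alpha genes a negative sign, at -0.078 to -0.11, so no direction can be read for them. For the 5 genes called in KO GFP against WT GFP, the upper ends of these intervals ran from 0.58 for Alas2 to 0.84 for Hbb-bs. They stand beside changes of -1.14 to -1.33 in that comparison, or -0.78 to -0.96 without WT GFP replicate 4. Without KO GFP replicate 2 the log2 fold changes in KO aYAP against KO GFP were 0.11 for Slc4a1 to 0.40 for Hbb-bs (95% interval -0.23 to 1.03), with 0.30 for Hba-a1 (-0.27 to 0.86) and adjusted p-values of 0.365 to 0.808, and none was called. The 2 comparisons share the KO GFP libraries.

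Against WT GFP, KO aYAP was lower in all 6 genes with no overlap, where 2.32% of all genes were. In KO aYAP, Hba-a1 was at 556, 615, 634 and 576 CPM, Hba-a2 at 454, 492, 497 and 469 CPM, and Hbb-bt at 318, 357, 323 and 327 CPM. Slc4a1 was at 3.44, 5.73, 5.60 and 5.49 CPM. Each of these libraries lay below each of the WT GFP libraries given above.

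The log2 fold changes against WT GFP were -1.06 to -1.14 for the globin genes, -1.12 for Alas2 and -0.88 for Slc4a1. None was called by limma, which called 0.0206% of genes, 3 in all, nor by edgeR, so that adjusted p-values stood at 0.660 for 5 genes and 0.722 for Slc4a1, with unadjusted p-values from 5.7e-04 to 0.014. DESeq2 called 0.164% of genes in this comparison and 4 of the 6, all lower. They were Alas2 at -1.30 (adjusted p = 0.010), Hba-a2 at -1.24 (0.023), Hba-a1 at -1.23 (0.025) and Hbb-bt at -1.18 (0.029). Without WT GFP replicate 4 the limma values moved to -0.72 to -0.84, with adjusted p-values of 0.484 to 0.656.

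In WT hearts, aYAP gave values below GFP in part. The summed globin level in WT aYAP was 2638, 3823, 2619 and 3503 CPM, around the 3 lower WT GFP libraries. The log2 fold changes were -0.38 to -0.57 for the globin genes, -0.46 for Alas2 and -0.76 for Slc4a1, with adjusted p-values of 0.703 to 0.859. Slc4a1, at 3.88, 5.01, 7.08 and 6.56 CPM in WT aYAP, was below each WT GFP library, where 2.19% of genes were lower without overlap. Without WT GFP replicate 4 the globin genes were at -0.065 to -0.20, Alas2 at -0.10 and Slc4a1 at -0.60. None of the 6 genes was called by any of the 3 tools. limma called 0 genes in all here, 0.0%, beside 1011 at an unadjusted p under 0.05, 0 called by edgeR and 11 by DESeq2.

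With aYAP in both, KO libraries were below WT libraries without overlap in 5 of 6 genes, where 4.72% of all genes were. Alas2 was at 35.3, 55.2, 37.8 and 46.7 CPM in WT aYAP and Hbb-bs at 652, 1071, 677 and 865 CPM, each above the highest KO aYAP library. Hba-a1 was at 838, 1145, 836 and 1115 CPM, Hba-a2 at 687, 904, 667 and 955 CPM, and Hbb-bt at 461, 702, 438 and 568 CPM in WT aYAP. The log2 fold changes, KO aYAP against WT aYAP, were -0.53 to -0.73 for the globin genes and -0.66 for Alas2. Slc4a1 overlapped, at -0.12 (95% interval -0.80 to 0.56). None was called by limma, edgeR or DESeq2, with adjusted limma p-values of 0.376 to 0.908, where limma called 0.0411% of genes. An unadjusted limma p under 0.05 was reached by 4 of the 6, and by 1627 of all 14597 genes tested.

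The difference between the genotype effects under GFP and under aYAP was tested as an interaction. It was not called for any of the 6 genes by limma, edgeR or DESeq2, where limma called 7.56% of all genes. An unadjusted limma p under 0.05 was held by 0 of 6, and by 3455 of all 14597 genes tested. The estimates were 0.43 to 0.80 on the log2 scale, with adjusted p-values of 0.246 to 0.574. The intervals were wide, -0.057 to 1.66 for Hbb-bs and -0.30 to 1.27 for Alas2. Without WT GFP replicate 4 the estimates were 0.12 for Hba-a1 to 0.43 for Hbb-bs, with adjusted p-values of 0.376 to 0.879. Without KO GFP replicate 2 they were 0.59 for Alas2 to 0.97 for Hbb-bs, with 0.87 for Slc4a1 and adjusted p-values of 0.113 to 0.362. With both left out they were 0.23 for Alas2 to 0.71 for Slc4a1, and none was called in these fits. The genotype contrast was also averaged over both vectors, a contrast chosen after the data were seen. With intervals this wide, the uncalled interaction does not show that the effects are alike under both vectors. The averaged contrast called 5 of 6 genes lower, where 2.19% of all genes were, with log2 fold changes of -0.90 for Alas2 (adjusted p = 0.016) to -0.95 for Hba-a2 (0.019), and -0.36 for Slc4a1 (0.41). Without WT GFP replicate 4, it called 5 of 6, where 1.13% of all genes were, at -0.72 to -0.81. It contains the difference between KO GFP and WT GFP already called, while KO aYAP against WT aYAP alone called 0 of 6. These counts are therefore not separate support.

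Alas2 followed the globin genes more closely than Slc4a1 did. Between Alas2 and the summed globin level, Pearson's r on log2(CPM + 1) was 0.961 over the 16 injected libraries, 0.934 without WT GFP replicate 4, 0.900 with group means removed, and 0.772 over the 8 uninjected libraries. For Slc4a1 r was 0.720 in the injected and -0.58 in the uninjected libraries. These values describe libraries that share depth and groups, and are not tests. Alas2 reads numbered 10.9 to 18.4 per 1000 globin reads in injected and 8.61 to 14.8 in uninjected hearts. Slc4a1 reads numbered 1.31 to 4.88 and 0.890 to 4.86.

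**Figure D3:**
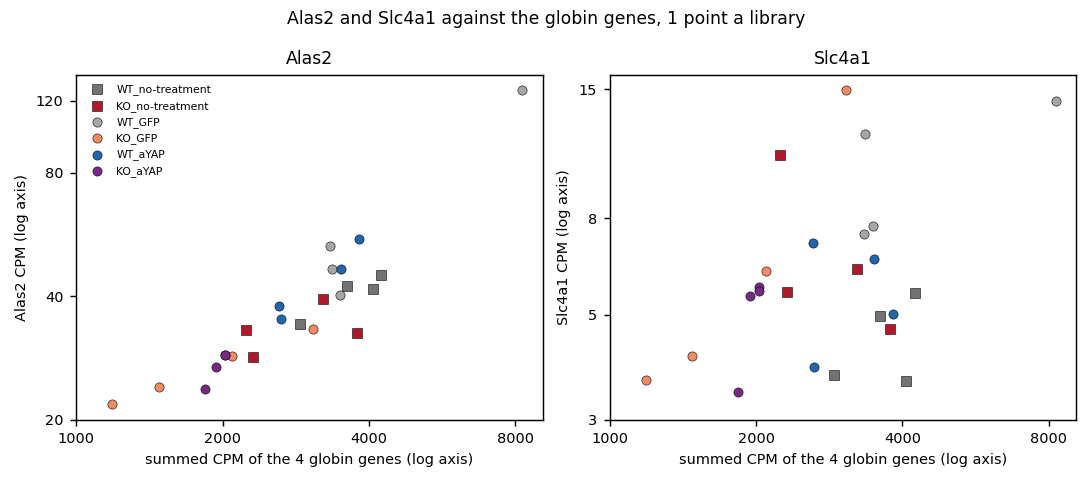
Alas2 (left) and Slc4a1 (right) in CPM against the summed CPM of the 4 globin genes, 1 point a library, all axes logarithmic, squares for uninjected and circles for injected hearts. Alas2 rises with the globin sum from 21.9 to 127 CPM in the injected set, while Slc4a1 scatters between 3.44 and 14.97 CPM.

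The ratio between the chains was steadier than their level. Reads of both alpha genes over those of both beta genes gave 1.12 to 1.59 in injected hearts over summed levels of 1187 to 8280 CPM and 0.916 to 1.16 in uninjected hearts. Hbb-bt to Hbb-bs was 0.517 to 0.761 and 0.679 to 0.914, and Hba-a2 to Hba-a1 was 0.755 to 0.864 and 0.915 to 0.929. The sets differ in read length and pairing, which cannot be told apart from injection here.

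Other genes of the erythroid programme were read from a list of 64, of which 35 had values for uninjected and 37 for injected hearts, 36 of these tested. The others were not analysed here, among them the 10 other globin genes, the erythroid transcription factors Gata1, Klf1 and Gfi1b, the alpha-globin chaperone Ahsp, and the membrane genes Epb42 and Rhag. In uninjected hearts 0 of 35 were called by limma and edgeR and 6 by DESeq2. Of all 15598 genes tested, these tools called 1044, 956 and 1951. An unadjusted limma p under 0.05 was held by 7 of the 35 and by 3517 of the 15598, so these counts set the list apart in no way. In KO GFP against WT GFP 3 of 36 were called lower and 0 higher, where 7.22% and 6.43% of all genes were, with a median of -0.0057 beside -0.0092 over all genes.

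Among the 3 were Bpgm and Aqp1. Bpgm, which makes the 2,3-bisphosphoglycerate that lowers the oxygen affinity of haemoglobin, was at 41.9, 45.5, 34.4 and 64.6 CPM in WT GFP. It fell to 26.4, 26.1, 29.7 and 27.3 CPM in KO GFP, by 0.71 on the log2 scale (SE 0.14, adjusted p = 0.0037). Aqp1, a water channel of red cells and of endothelium, fell from 163, 199.2, 192 and 194 CPM to 112, 75.8, 109 and 109.6 CPM, by 0.89 (SE 0.16, adjusted p = 0.0017). In KO aYAP Aqp1 was at 202 to 255 CPM, and it rose against KO GFP by 1.24 (adjusted p = 1.1e-04), where no globin gene was called.

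In KO aYAP against KO GFP, 1 of 36 list genes was called higher and 4 lower, where 7.85% and 6.92% of all genes were. The 4 were Car2, a carbonic anhydrase (-0.55, adjusted p = 0.039), Urod, an enzyme of haem synthesis (-0.35, 0.049), Rhd, a blood group antigen of the membrane (-0.68, 0.018), and Slc25a38, a mitochondrial carrier that feeds glycine to haem synthesis (-0.56, 0.019). Their KO GFP means of 9.47 ± 1.53, 59.7 ± 5.96, 7.78 ± 1.21 and 11.05 ± 2.61 CPM compared with 6.18 ± 1.39, 46.9 ± 8.86, 4.46 ± 0.168 and 7.04 ± 0.808 CPM in KO aYAP (SD, n = 4).

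The list genes with the highest mean levels were Tmod1, Prdx2, Aqp1, Alas1, Sptb, Tfrc, Fech, Epb41 and Ank1, from Tmod1 at 408.6 CPM to Ank1 at 89.4 CPM in uninjected hearts. Apart from Aqp1 none of these was called by limma or edgeR in any of the 7 comparisons. DESeq2 also called Tmod1 (0.23) and Epb41 (0.51) higher in uninjected KO and Alas1 (-0.37) lower in KO GFP. Several of them, such as Alas1, the haem enzyme of all tissues, and Tfrc, the transferrin receptor, are expressed widely and not only in red cells. The list summed to 1977 to 2457 CPM in injected hearts, a range far narrower than the 1187 to 8280 CPM of the globin genes.

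Across the 16 injected libraries, the tested genes outside the 6 whose log2(CPM + 1) was most like the summed globin level included Tent5c (r = 0.936), Crocc (0.875), Mphosph9 (0.838) and Apex2 (0.836). Tent5c encodes a poly(A) polymerase. Its WT GFP libraries held 12.8, 11.7, 12.5 and 20.9 CPM, and it fell to 6.46, 10.3, 7.55 and 6.06 CPM in KO GFP, by 0.84 on the log2 scale (SE 0.18, adjusted p = 0.0065). Apex2 spans Alas2 on the other strand, and although the libraries were strand-specific, whether the counting used strand was not given in the sources used here, so its value is uncertain. Over the 8 uninjected libraries they were Nbl1 (0.977), Car7 (0.973), Vtn (0.956), Tcf15 (0.954) and Gm3436 (0.952). Only Ift27 was among the 50 most alike in both sets, with r of 0.769 injected and 0.881 uninjected.

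**Figure D4:**
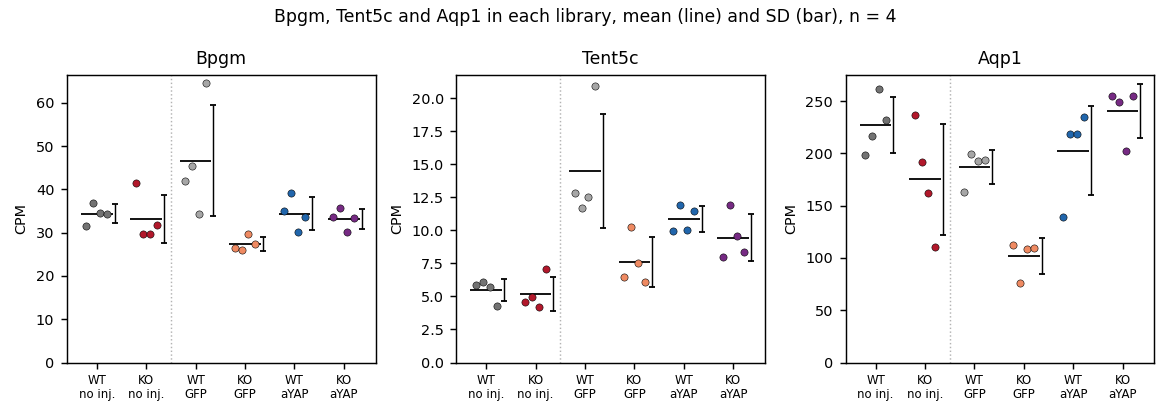
CPM (y axis, from 0) of Bpgm, Tent5c and Aqp1 in each library by group (x axis), with mean (line) and SD (bar, n = 4). WT GFP replicate 4 is the highest injected library for Bpgm and Tent5c, and within the injected set Aqp1 is lowest in the 4 KO GFP libraries, at 75.8 to 112 CPM.

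Genes that handle released haemoglobin were read as a list of 8, of which 6 were tested. In uninjected hearts 1 was called, Hp, which encodes the haemoglobin-binding plasma protein haptoglobin. It rose from 0.362 to 0.920 CPM in WT to 3.82 to 20.9 CPM in KO (log2 fold change 2.34, adjusted p = 0.013). In KO GFP against WT GFP 0 of 6 were called by limma and edgeR and 1 by DESeq2, with 1 at an unadjusted limma p under 0.05. Of all 14597 genes tested, DESeq2 called 2393 and 4000 had such a p. Hp ran from 3.22 to 83.6 CPM in KO GFP and from 0.384 to 3.94 CPM in WT GFP. Fth1, the ferritin heavy chain, which stores iron, fell in KO aYAP against KO GFP by 0.32 (adjusted p = 0.020).

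If the globin genes are read as a measure of blood in the sample, markers of other blood cells can be set beside them. A macrophage list is given too, but is not read as a measure of blood. In KO GFP against WT GFP, neutrophil genes ran opposite to the globin genes. Their sum was 39.4 to 76.2 CPM in KO GFP and 8.37 to 17.0 CPM in WT GFP, and 5 of 6 tested were called higher in KO GFP, led by S100a8 (2.41), S100a9 (1.97), Ltf (1.34) and Ngp (1.17) on the log2 scale. In KO aYAP the sum was 4.23 to 19.2 CPM, and 5 of 6 were called lower than in KO GFP, where the globin genes did not pass. In uninjected hearts 9 of 9 were called higher in KO, with sums of 56.3 to 121 against 5.24 to 11.7 CPM.

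B cell and macrophage genes were lower in KO GFP, as the globin genes were, and were also called higher in KO aYAP than in KO GFP, where no globin gene was called. In uninjected hearts, where no globin gene was called either, 2 of 2 B cell and 6 of 8 macrophage genes were called lower in KO. The B cell list summed to 0 to 1.17 CPM in KO GFP, 7.14 to 9.20 in WT GFP and 6.69 to 9.89 in KO aYAP. Of this list of 8, other genes such as Ms4a1 were not analysed here, and only Ighm, the immunoglobulin mu chain, was tested in injected hearts. It fell by 2.41 in KO GFP (adjusted p = 4.0e-06) and rose by 2.18 in KO aYAP against KO GFP (adjusted p = 6.7e-06). Of 8 macrophage genes, 6 were called lower and 1 higher in KO GFP, led by the complement genes C1qa (-1.55), C1qb (-1.49) and C1qc (-1.23) and by Adgre1 (-1.42). The macrophage sum was 102 to 155 CPM in WT GFP, 41.8 to 111 in KO GFP and 107 to 130 in KO aYAP, where 6 of 8 were called higher than in KO GFP. Of the monocyte list, 0 of 2 tested genes were called in KO GFP against WT GFP (median 0.082). In uninjected hearts 0 of 3 were called, and all 3 were positive (median 0.64).

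**Figure D5:**
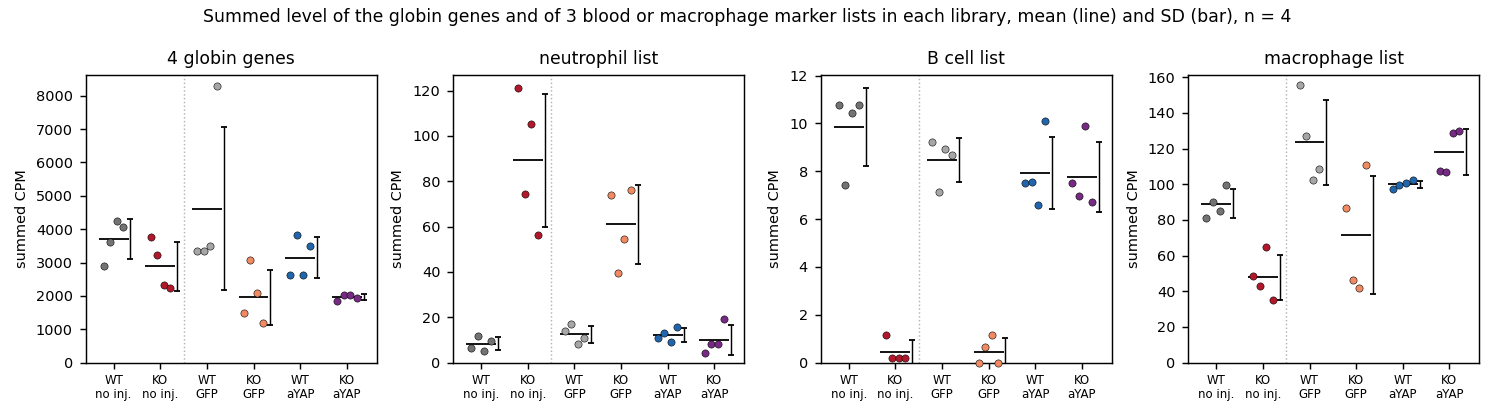
Summed CPM (y axis, from 0) of the 4 globin genes and of the neutrophil, B cell and macrophage lists in each library by group (x axis), with mean (line) and SD (bar, drawn down to 0 at most, n = 4). The neutrophil sum is high and the B cell sum near 0 in both KO groups without aYAP, and the KO aYAP libraries overlap the WT libraries in both lists but lie below each WT GFP library in globin.

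Platelet genes summed to 11.3 to 23.1 CPM in injected hearts. Of 5 tested, Clec1b, a platelet receptor, was the only one called in KO GFP against WT GFP, and was higher (1.07, adjusted p = 0.0032). Of the 5, 3 had negative and 2 positive changes, with a median of -0.067, so the list as a whole did not rise. Some genes of solid-tissue lists were called in KO GFP against WT GFP too, where 7.22% of all genes were called lower and 6.43% higher. Of the 8 endothelial genes Kdr (-0.43), Tek (-0.38) and Cdh5 (-0.31) were called lower, of 6 fibroblast genes Lum (-0.80), Col1a1 (-0.76), Col1a2 (-0.73) and Dcn (-0.35), and of 8 mural genes Myh11 (-0.78). Of 8 cardiomyocyte genes Tnnt2 (0.65) was called higher. The mural and cardiomyocyte lists, with 1 call each and medians of -0.22 and 0.041, are near the shares of all genes and are not read as moved. In KO aYAP against KO GFP, where no globin gene was called, 4 of 6 fibroblast, 3 of 8 endothelial and 3 of 8 mural genes were called higher, and Emcn, an endothelial gene (-0.45), and Tnnt2 (-0.62) lower. Over all genes 7.85% were called higher and 6.92% lower there. Of 4 atrial genes, 3 had values in injected hearts, and Nppa and Myl4 were tested. The 3 summed to 94.97 to 311 CPM in WT GFP, 214.1 to 426 in KO GFP, 177 to 250.1 in WT aYAP and 35.2 to 172 in KO aYAP. Neither was called in KO GFP against WT GFP. Nppa, which encodes the atrial natriuretic peptide, was called lower in KO aYAP than in KO GFP (-2.11, adjusted p = 0.0037), and Myl4, an atrial myosin light chain, lower in KO aYAP than in WT aYAP (-1.01, adjusted p = 0.018). The part of these changes in the globin result was not tested.

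In KO aYAP against WT GFP, none of the genes of the neutrophil, B cell, macrophage and platelet lists was called by limma, edgeR or DESeq2. Of them 0 had an unadjusted limma p under 0.05, where 888 of all 14597 genes tested did. The list medians were -0.22, -0.23, -0.080 and -0.41, beside -1.11 for the 4 globin genes and 0.00031 over all genes. Across libraries the summed globin level was set against the other erythroid, platelet, neutrophil and cardiomyocyte sums in each set, 8 relations in all. In permutation tests none passed. Pearson's r was 0.103, 0.042, -0.49 and -0.063 over the 8 uninjected libraries, with adjusted p-values of 0.573 to 0.916. Over the 16 injected libraries r was 0.344, 0.141, -0.38 and -0.12, with permutation p-values over the same range once adjusted. Spearman's rho ran from -0.38 to 0.238, with adjusted p-values of 0.825 to 0.840. Without the 2 libraries farthest from the median globin level, r was 0.398, -0.30, -0.13 and 0.357 in the uninjected and -0.088, 0.390, -0.18 and -0.32 in the injected set.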

How the data were processed

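RNA-seq was measured in 24 mouse heart libraries, 4 in each of 6 groups taken from the labels. The members and gene lists were chosen with earlier results of these data known. According to the study's methods and the submitters' processing notes, reads were trimmed (Cutadapt 2.3), aligned to GRCm38 (HISAT2 2.1.0), quantified by gene (StringTie 1.3.4, prepDE) and turned into CPM (edgeR 3.26.1). The authors deposited this signal with columns that sum to 942566 to 1134439, so it was read as CPM on library sizes scaled by TMM. The sources used here do not state that scaling. Read counts were recovered from the value of 1 read in each library of the deposited tables, with at least 99.9% of values whole within 0.05 reads.

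A gene was tested in a set when 4 of its 8 uninjected or 8 of its 16 injected libraries were above 1 CPM, which left 15598 and 14597 genes. The limma 3.58.1 fit, 1 model per set, took log2(CPM + 1) and let the variance follow the mean, and adjusted p-values (Benjamini-Hochberg) cover all genes tested. A fold change on this scale understates the change of low genes such as Slc4a1. The study's methods name Fisher's exact test directly after edgeR and do not say how the spread between libraries entered it. A plain Fisher's exact test does not take that spread, so limma was used here. Genes were called at an adjusted p under 0.05. edgeR 4.0.16 (quasi-likelihood) and DESeq2 1.42.0 on the recovered counts, other scalings, pseudocounts and filters, the replicate number as a block and leaving out libraries were alternatives. Fits were tested on simulated data. Correlations of summed levels used two-sided permutation tests, exact over 8 libraries and with 100000 resamples over 16, adjusted over 8 relations.

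The study describes its sequenced replicates as biological and its groups as balanced for sex. Nothing in the labels ties a library to an animal or gives its sex, so p-values measure the spread between these samples. Symbols and positions are from GENCODE M21 on GRCm38, promoters from RefSeq. All 6 members are named. Other erythroid genes are named when called or among the 8 with the highest mean, genes of other lists when called with a member, at most 4 a list, and the 5 genes most like the globin sum in each set, except for results that are not reported here. R 4.3.3 and Python 3.11.15 were used.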

Additional observations from a re-analysis of the deposited data

Results flagged for a closer look

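Of 60 sets of 4 values, 9 held a library whose gap to the next, divided by the range of the group, was above Dixon's critical value for 4 values, where chance gives about 3. In 6 of these the library was WT GFP replicate 4. It held 2426 CPM of Hba-a1 (other WT GFP libraries 979 to 1135), 1941 CPM of Hba-a2 (783 to 916), 2580 CPM of Hbb-bs (871 to 1015), 1333 CPM of Hbb-bt (555 to 562), 127 CPM of Alas2 (40.4 to 53.2) and 8280 CPM of the 4 globin genes together (3331 to 3484). These 6 values come from 1 library. Slc4a1 in KO aYAP replicate 1 was lowest at 3.44 CPM, with the others at 5.49 to 5.73 CPM.

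The ratio of Hbb-bt to Hbb-bs was 0.761 in KO GFP replicate 2, with 0.592 to 0.619 in the other KO GFP libraries, and 0.708 in WT aYAP replicate 1, with 0.648 to 0.657 in the other WT aYAP libraries.

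None of the 6 genes was called for the difference between the genotype effects under aYAP and under GFP, but of the 52 genes named in the text and tested for it, Xirp2 aside, 19 were, by limma across all genes, with adjusted p-values of 2.2e-04 to 0.036. Over all genes 7.56% were called, and since many of the named genes were named for a call in a comparison that enters this difference, their count is not set against that share. On the log2 scale this difference was 1.15 for Aqp1, 2.40 for Ighm, 2.02 for Adgre1, 1.62 for C1qa, 0.58 for Kdr, 0.75 for Nbl1, 1.00 for Lum, 0.92 for Col1a2, 0.89 for Col1a1 and 0.51 for Dcn. It was -0.95 for Rhd, -2.75 for S100a8, -2.27 for S100a9, -1.67 for Ltf, -1.51 for Ngp, -1.40 for Clec1b, -0.88 for Tnnt2, -2.38 for Nppa and -1.01 for Myl4. No cause of any of these was tested.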

How the results depend on the processing

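Over the alternatives for the log2 fold changes of the 6 genes, 1023 values kept direction and side of the threshold, 6 newly passed it, 3 no longer did and 18 changed sign. In KO aYAP against KO GFP, Hba-a2 and Hba-a1 were at -0.083 and -0.11 with edgeR and at -0.078 and -0.11 with DESeq2, and Slc4a1 was at 0.11 with WT GFP replicate 4 and KO GFP replicate 2 both left out. Leaving out 1 library there gave -0.48 to 0.11 for Slc4a1, -0.069 to 0.13 for Alas2, -0.22 to 0.32 for Hba-a2, -0.22 to 0.30 for Hba-a1, -0.059 to 0.37 for Hbb-bt and 0.087 to 0.40 for Hbb-bs, and in KO aYAP against WT aYAP -0.26 to 0.022 for Slc4a1. With group means removed, the correlation of the globin sum with neutrophil genes turned from -0.49 to 0.296 in uninjected hearts, and that with cardiomyocyte genes to 0.475 in uninjected and 0.114 in injected hearts.

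Counts of all genes called moved by more than 1.5 times as follows, given as shares of the genes tested. In uninjected hearts 6.69% were called, but 12.5% by DESeq2, 10.4% with libraries scaled to their reads outside the globin genes and without the deposited factors, 5.56% of the fewer genes with a mean CPM above 5, and 2.05% to 13.1% with 1 library left out. In KO GFP against WT GFP 13.7% were called, but 4.41% in the contrast averaged over both vectors, 2.52% in that contrast without WT GFP replicate 4, and 8.66% to 18.9% with 1 library left out. In WT aYAP against WT GFP, KO aYAP against WT GFP and KO aYAP against WT aYAP, DESeq2 called 0.0754%, 0.164% and 0.486%, where limma called 0%, 0.0206% and 0.0411%. In the second of these DESeq2 called 4 of the 6 genes. With both libraries left out the 3 shares were 0.00685%, 0.048% and 0.123%, and leaving out 1 library gave 0% to 0.00689%, 0% to 0.0275% and 0% to 0.11%. Leaving out 1 library gave 4.31% to 10.1% for the interaction, where 7.56% were called. For KO aYAP against KO GFP, where 14.8% were called, it gave 10.2% to 17.1%, within 1.5 times. The causes were not tested.

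That scaling, which changes both at once while the globin genes hold at most 0.854% of reads, moved the median of all genes by -0.12 in uninjected hearts, 0.13 in KO aYAP against KO GFP and 0.12 in the interaction. The share of calls that were higher went from 48.3% to 22.0%, from 53.2% to 78.5% and from 50.2% to 72.2%. With the replicate number as a block, 2.47% of genes were called in uninjected hearts and 4.84% for the interaction, and no call of the 6 genes changed. Same-numbered libraries had deviations correlated at -0.19 to 0.098 in uninjected and -0.17 to 0.14 in injected hearts, so the numbers were not taken to pair the samples. Depth limits Slc4a1, at 61 to 259 reads a library.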
